A study of Mus musculus with 12 samples.

Results

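The cecum is the blind pouch at the start of the large intestine, and its wall was profiled here in the sham state, before any burn. Of the 12 arrays in the series, the 3 labelled sham control were used, each holding RNA from the cecum of a different C57BL/6 mouse. The other 9 arrays hold cecum taken after cauterization of the cecal wall, a model of adhesions after abdominal surgery, and none of their values was used. The labels give the mice as male and the tissue as cecum, and the methods place the sampling at 0 h after the sham operation. The samples are called sham mice 1, 2 and 3, after the numbers in the labels. RNA was labelled with a single dye and hybridised to the Agilent array for mouse genes (SurePrint G3, version v2, format 8x60K), where each probe is a DNA strand of 60 bases.

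The wall of the cecum is built in layers. Facing the lumen is a single sheet of epithelium with straight crypts, in which stem cells at the base renew absorptive colonocytes, mucus-filled goblet cells and scattered hormone and tuft cells. Below it lie connective tissue with vessels, lymphoid patches and immune cells, then smooth muscle with the enteric nerves, and on the outside the serosa, covered by a thin sheet of mesothelial cells. RNA from whole wall mixes all of these, and fewer cells of a type and less RNA per cell cannot be told apart.

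The level of a gene is given as log2 of the intensity of its brightest probe minus the 75th percentile of the same array, so that 1 unit is a factor of 2 and a spot at that percentile has the level 0. Values are means ± SD of the 3 mice. A gene was called detected when the scanner software marked that probe as well above background on all 3 arrays. Between 64.9% and 66.6% of the spots of an array passed that mark, no spot was saturated, and the 75th percentile lay at an intensity of 280, 285 or 308. All 3 arrays lay on 1 slide and were scanned on the same day. Probe brightness depends on the probe as well as on the transcript, so that the order of genes describes signal and was not tested.

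Of 27195 named genes, 17996 (66.2%) were detected in the sham cecum, and 7852 (28.9%) were above background on none of the 3 arrays. The detected genes ran from a level of 9.24 down to -5.43, with a median of -0.12. Signal was concentrated in few of them. The 100 highest genes held 19.4% to 20.7% of the summed signal of all genes on each array, and the 10 highest held 3.08% to 3.46%.

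The highest level belonged to Rn18s, the RNA of the small ribosomal subunit, at 9.34, 9.12 and 9.26 in sham mice 1, 2 and 3. Genes of several kinds stood among the 25 highest. The first were genes of the colonic epithelium: Lypd8, a secreted protein that keeps flagellated bacteria off the mucosa (8.48 ± 0.07), Dmbt1, a mucosal scavenger receptor that binds bacteria (8.44 ± 0.08), Car1, a carbonic anhydrase of colonocytes (8.27 ± 0.10), Guca2a, the hormone guanylin that drives chloride secretion (8.19 ± 0.15), Krt8, a keratin of simple epithelia (8.08 ± 0.08), and Zg16, a lectin of the mucus layer (8.06 ± 0.09).

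The second kind were genes that nearly all cells use, such as the cytochrome c oxidase subunit Cox6a1 (8.66 ± 0.05), beta-actin Actb (8.39 ± 0.10), cyclophilin A Ppia (8.38 ± 0.14), the ferritin heavy chain Fth1 (8.02 ± 0.04) and progranulin Grn (8.78 ± 0.08). The other probes of Grn stood at 4.76 and 0.48. The third kind were genes that the cecum is not known for. Slc10a1, the bile acid importer of liver cells, stood in 4th place at 8.54 ± 0.05, and Gcm1, a transcription factor of the placenta, in 24th place at 8.04 ± 0.17. Other probes of these genes were compared with the brightest probe for that reason, and the letters of the probes were read.

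Many of these probes shared a short run of letters with probes of other genes. A word was counted as shared when the same 15 bases, on either strand, occurred in probes of 6 or more genes, a limit set after the values were seen. Shared words were found in 936 of the 56605 probes (1.65%), but in 27 of the 100 brightest probes and in the brightest probe of 26 of the 100 highest genes. The runs below are parts of the probes as printed on the array, with the shared word in capitals, and are shown because they recur between genes of unrelated function that stand near the top of the list.
Elk1: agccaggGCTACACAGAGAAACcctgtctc
Cxcl11: agccaggGCTACACAGAGAAACcctatctt
Pirb: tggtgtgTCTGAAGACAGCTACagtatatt
Medag: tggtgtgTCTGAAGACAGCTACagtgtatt
Pigr: agaaggaGAAGAAGAAGAAGAAgaagaaga
Rhox8: aGAAGAAGAAGAAGAAgaagaagaagaaga
Slc10a1: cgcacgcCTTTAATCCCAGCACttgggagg

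In the mm9 build that the array files name, the whole probes lie at chrX:20510521-20510580 (Elk1, a transcription factor), chr5:92788567-92788626 (Cxcl11, a chemokine), chr7:3663046-3663105 (Pirb, an inhibitory receptor of myeloid cells), chr5:150234212-150234271 (Medag, an adipogenesis gene), chr19:5932558-5932617 (Pigr, the receptor that carries IgA across the epithelium), chrX:35231462-35231521 (Rhox8, a homeobox gene of the reproductive tract) and chr12:82056539-82056598 (Slc10a1). Whether they fall in an exon or a UTR was not assigned here. Mouse DNA holds many copies of the short repeats B1 and B2 and of simple GAA repeats, and these words are of the kind found in them. The word printed for Elk1 and Cxcl11 occurred in probes of 17 genes, that of Pirb and Medag in probes of 19, that of Pigr and Rhox8 in probes of 22, and that of Slc10a1 in probes of 9. The annotation places the gene Pigr on chromosome 1, whereas its brightest probe lies on chromosome 19. Such a mismatch was seen for 4 of the 26 genes with a shared word and for 3 of the 71 other genes of the top 100 that could be placed, against 40 of 16952 genes (0.236%) in all.

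The other probes of these genes were far dimmer. The second probe of Slc10a1 was above background on none of the arrays, at -6.14. The next probe of Elk1 was at -3.15, that of Pigr at 1.91, that of Cxcl11 at 2.31 and that of Pirb at 1.08. Among the 26 genes with a shared word, 20 had more than 1 probe, and in 19 of them the next probe was more than 3 units lower, with a median difference of 8.91. The exception was Gcm1, whose next probe stood at 7.58, but that probe overlaps the first, and all 3 probes of Gcm1 hold a shared word. Among the other 74 genes, 40 had more than 1 probe and 9 had a next probe that far below, with a median difference of 1.74. The plot of the highest genes with their other probes shows the contrast. Which transcripts gave the signal of the probes with shared words was not tested.

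**Figure D1:**
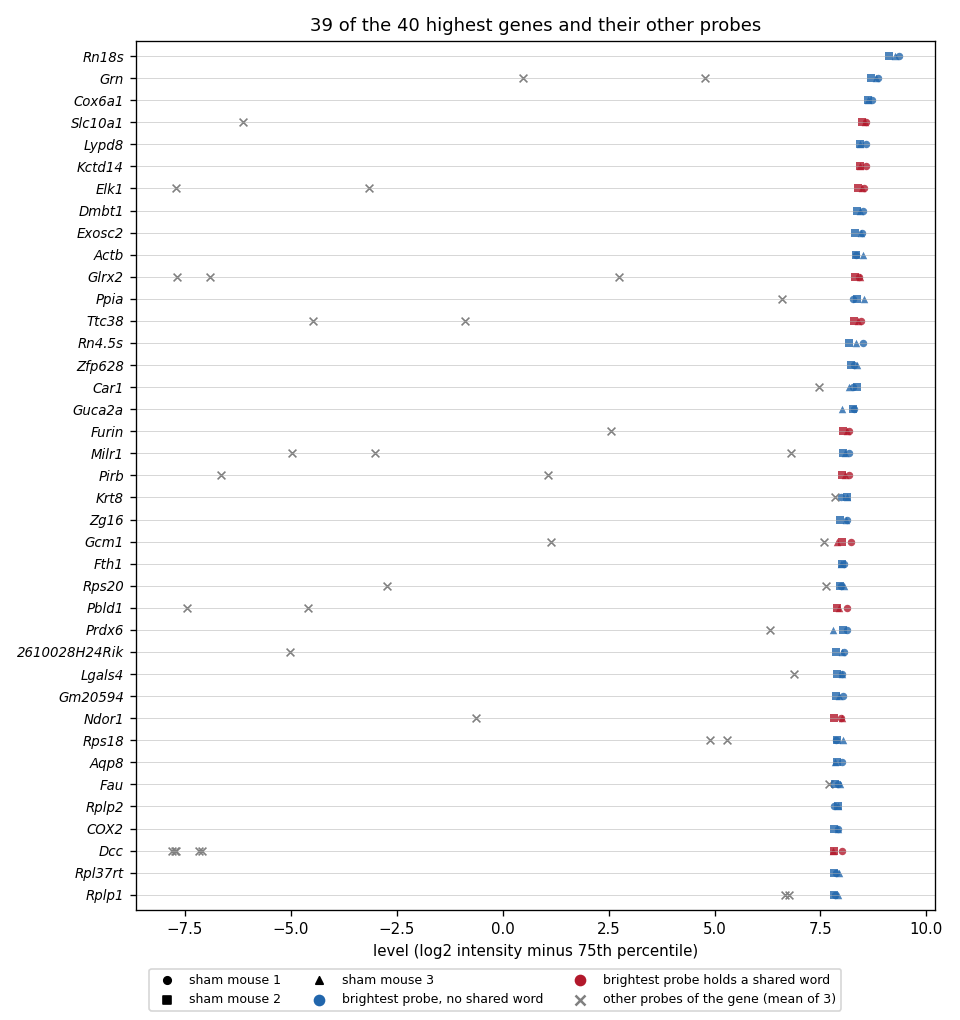
Levels of 39 of the 40 highest genes of the sham cecum on a log2 scale, with the 3 mice at the brightest probe of each gene, its other probes, and probes that hold a word of 15 bases shared by 6 or more genes marked apart. The second probe of Slc10a1 sits near -6 while its first sits above 8, whereas single-probe genes such as Zg16 and Cox6a1 have no second value to compare.

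Left without these probes, the top of the list held Rn18s, Grn, Cox6a1, Lypd8, Dmbt1, Exosc2, Actb, Ppia, Rn4.5s, Zfp628, Car1, Guca2a, Milr1, Krt8, Zg16 and Fth1. Slc10a1, Elk1, Glrx2, Furin, Pirb and Gcm1 had left it, and the limit of 6 genes leaves in probes whose words fewer genes share. Grn and Milr1 stayed by their brightest probe alone. Other probes without a shared word stood at 4.76 and 0.48 for Grn and at -3.00 and -4.97 for Milr1. The 100 highest genes then held 25 cytosolic ribosomal proteins instead of 18, 6 instead of 5 nuclear subunits of the respiratory chain, 5 instead of 4 absorptive colonocyte genes, 3 instead of 2 goblet cell genes and 1 instead of 2 antimicrobial genes, while genes common to all epithelial cells stayed at 3.

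Probes of 1 transcript also differed across the array as a whole. Over 4991 transcripts with 2 or more detected probes, the median range between the probes was 2.51 units, and 80.8% had a range above 1. The probe nearer the 3′ end was the brighter in 86.2% of 4855 transcripts whose probes could be placed, by a median of 2.20 units, and that median was 2.21, 2.19 and 2.20 in the 3 mice. Genes less than 2.51 units apart are therefore not ordered by these values. A wider gap does not settle the order either, since the range was above 3 units in 2016 of the 4991 transcripts. The spread between mice was far smaller, with a median SD of 0.16 over detected genes and 0.09 over the 100 highest.

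Each list of known genes is described by the median percentile of its members among all named genes, where 50 is the middle. That percentile also depends on the probes. It moved by up to 12.6 points when the probes of each gene were averaged, and by up to 47.5 with single-probe genes alone. Of 46 lists, 7 had a median above percentile 90. These were the cytosolic ribosomal proteins (78 of 81 detected, percentile 99.2), the nuclear subunits of the respiratory chain (74 of 75, 98.5), goblet cells (14 of 14, 98.3), absorptive colonocytes (19 of 20, 97.7), genes common to all epithelial cells (18 of 18, 97.4), heat shock proteins (11 of 11, 95.6) and smooth muscle (18 of 18, 95.3). These counts stand beside 66.2% detected among all genes.

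**Figure D2:**
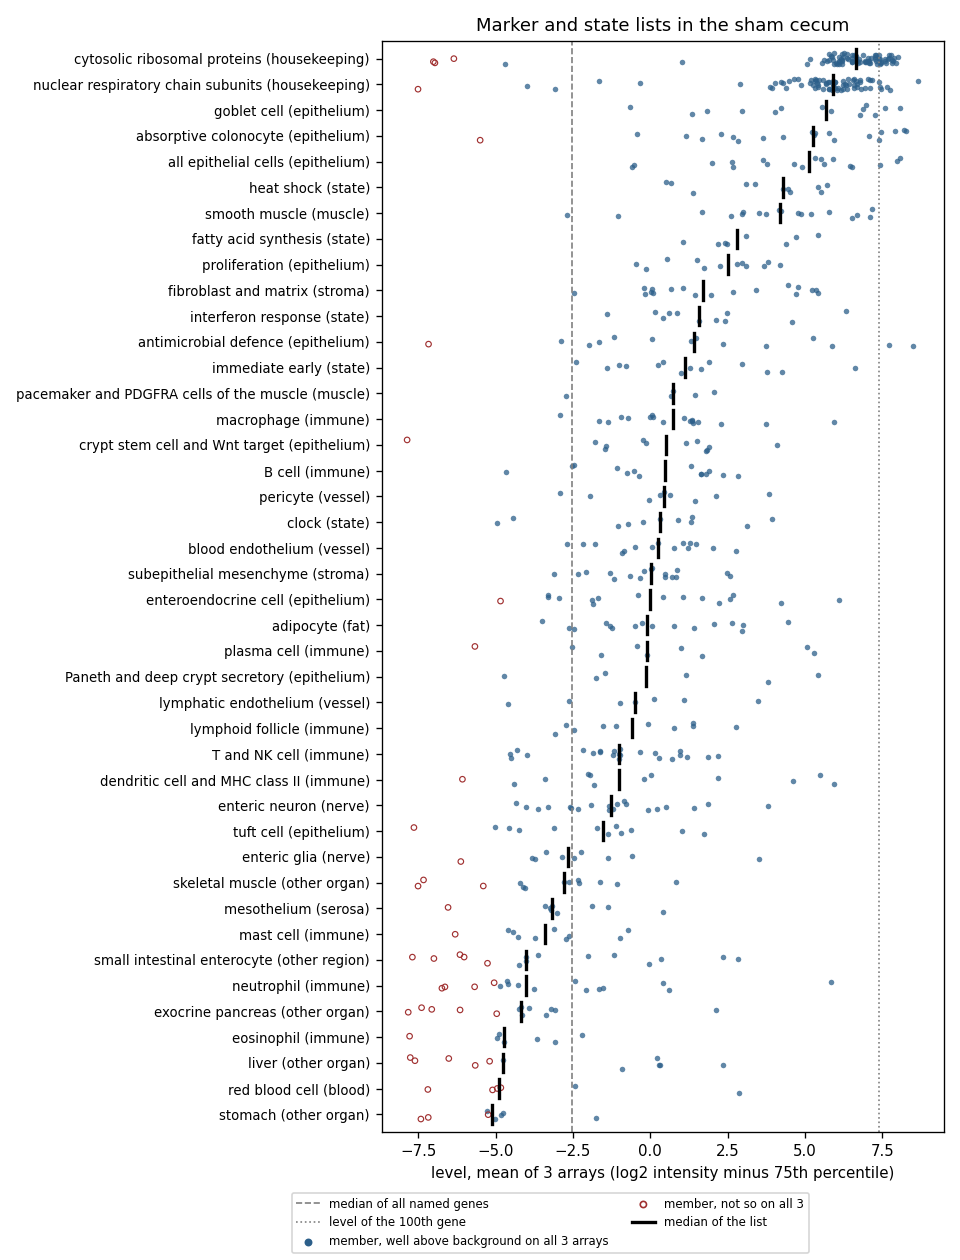
Level of every member of each list in the sham cecum, mean of 3 arrays on a log2 scale, with filled points for members well above background on all 3 and open points for the rest. Epithelial and housekeeping lists lie to the right, smooth muscle just below them, and mesothelium, liver and stomach lists to the left, near or below the median of all genes at -2.52.

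The ribosomal proteins were led by Rps20 (8.01 ± 0.05) and Rps18 (7.92 ± 0.09). The 3 members that were above background on none of the arrays, Rpl10l, Rpl39l and Rpl3l, are copies known from testis or muscle. Transcripts of energy production were high in both genomes. Of the 13 protein genes of the mitochondrial genome, 11 were found on the array by name and all 11 were detected. COX2, a subunit of cytochrome c oxidase, stood in 37th place at 7.88 ± 0.06, CYTB at 7.74 ± 0.11 and COX1 at 6.98 ± 0.12, while ND6 was the lowest at 0.04 ± 0.27. Among nuclear subunits, Cox8a (7.75 ± 0.12), Atp5b (7.66 ± 0.05) and Atp5a1 (7.44 ± 0.09) followed Cox6a1. The lowest members of that list were forms known from muscle or testis, with Cox8b at -1.67, Cox7b2 at -3.07 and Cox8c above background on none of the arrays.

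Absorptive colonocytes take up salt and water at the surface. After Car1 and Guca2a came Aqp8, a water channel of the colonic surface (8.02, 7.88 and 7.83), Krt20, a keratin of mature surface cells (7.46 ± 0.09), and Fabp2, an intracellular fatty acid carrier (7.62, 7.45 and 7.06). Slc26a3, the chloride-bicarbonate exchanger that recovers salt, stood at 5.29 ± 0.23, and Slc9a3, the sodium-proton exchanger that works with it, at 3.63 ± 0.38. The sodium channel subunit Scnn1a was lower, at 1.15 ± 0.04. Atp12a, the colonic proton-potassium pump, was the member not detected, being above background on 1 array.

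Goblet cells fill the mucus layer, and their genes were as bright. Zg16 read 8.12, 7.96 and 8.10. Muc2, the gel-forming mucin that makes the mucus layer, read 7.59, 7.53 and 7.61 with its brightest probe, while its second probe stood at 0.20. Tff3, a trefoil peptide of mucus repair (7.26 ± 0.08), Spink4, a small goblet cell protein (6.98 ± 0.09), Fcgbp, a mucin-binding protein (6.87 ± 0.22), and Clca1, a mucus-processing protease (6.78 ± 0.17), followed. The factors that specify the lineage were lower, with Spdef at 2.96 ± 0.08 and Atoh1 at 1.82 ± 0.15. Of the 14 members, the lowest was Sytl2 at -0.67.

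Genes common to all epithelial cells were detected throughout. Lgals4, a gut galectin, stood at 7.98 ± 0.07, Krt19 at 7.41 ± 0.14, Krt18 at 6.51 ± 0.33, Cldn7 at 6.46 ± 0.04 and villin, Vil1, at 5.90 ± 0.13. The intestinal master regulators Cdx1 and Cdx2 read 5.61 ± 0.10 and 5.52 ± 0.06. E-cadherin, Cdh1, stood at 3.75 ± 0.12 and Epcam at 3.65 ± 0.17.

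Rarer epithelial cells lay nearer the middle. Among hormone genes, Sct, which encodes secretin, was at 6.11 ± 0.26, the granule protein Chgb at 4.21 ± 0.07, Gcg, the precursor of glucagon-like peptides, at 2.68 ± 0.17, Chga at 2.57 ± 0.06 and neurotensin, Nts, at 2.22 ± 0.18. Of 16 such genes 15 were detected, against 66.2% of all genes, with a median percentile of 67.8. Insl5, a peptide of colonic L cells, was low at -3.30 ± 0.14. Tuft cell genes ran from Ptgs1 at 1.73, which other cells also use, through Dclk1 at -0.62 and Trpm5 at -4.58 to Il25, which was above background on none of the arrays.

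In the crypt, Reg4, a marker of the deep crypt secretory cells of the large bowel, stood at 5.41 ± 0.04 and Lyz1, lysozyme of Paneth cells, at 3.79 ± 0.28. They led a list of 6 genes, all detected against 66.2% of all genes, with a median level of -0.15 at percentile 67.1. Ang4 stood at -1.46, Pla2g2a at -1.77 and Mmp7 at -4.72, and several defensins had no probe of that name. Smoc2 (1.89 ± 0.27), Ascl2 (1.83 ± 0.09) and Ephb2 (1.81 ± 0.19) led the stem cell and Wnt target genes once Ephb3, whose single probe holds a shared word, is set aside. Lgr5, the receptor that defines crypt base stem cells, read -0.47, 0.03 and -0.27. Olfm4, a stem cell gene of the small intestine, was at background on all 3 arrays, at -7.86 ± 0.06.

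Genes of antimicrobial defence spanned almost the whole scale. Below Lypd8 stood the acute phase proteins Saa2 (5.86 ± 0.14) and Saa1 (5.27 ± 0.18), which the large bowel epithelium makes itself. Duoxa2 and Duox2, the epithelial peroxide source, were at -1.18 ± 0.53 and -2.90 ± 0.30, and Lcn2, an iron-binding protein of inflamed gut, at -1.97 ± 0.14. Sprr2a1 was above background on none of the arrays. The values of Reg3b and Reg3g differed widely between mice and are given with the mouse differences.

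Genes of neighbouring gut regions and organs had low medians, although the share of them detected was near the 66.2% of all genes in several lists. Of 15 genes of small intestinal enterocytes, 10 were detected, with a median percentile of 40.6. The disaccharidases Sis and Lct and the lipoprotein genes Apoa1 and Apoa4 were above background on none of the arrays. Slc10a2, the bile acid importer of the ileum, was the highest of that list at 2.83 ± 0.25, and Fabp6, which carries bile acids inside ileal cells, stood at -2.02 ± 0.58. The peptidase Anpep stood at 2.34 ± 0.20. Stomach genes (5 of 8 detected, percentile 33.5), exocrine pancreas genes (8 of 13, 39.5) and liver genes (6 of 11, 35.8) were among the lowest lists. Several of their members nonetheless carried the detection mark, such as albumin, Alb, at -4.77. The highest members stood at 2.35 (liver), 2.11 (pancreas, Cela1) and -1.75 (stomach). The mark alone therefore does not show that a cell type is present.

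Hox genes encode the transcription factors that mark position along the body axis, and their number within each cluster rises from head to tail. In the sham cecum 29 of 39 were detected, a share near the 66.2% of all genes. The middle of the clusters was the best represented, with 21 of 22 genes of positions 4 to 10 detected at a median level of -0.54, against 6 of 8 genes of positions 1 to 3 at -3.23. Of the 9 genes of positions 11 to 13, 2 were detected, Hoxa11 at 0.35 ± 0.44 and Hoxa13 at -1.59 ± 0.21, and the other 7 were above background on none of the arrays. The highest were Hoxa7 (3.36 ± 0.04), Hoxa10 (3.03 ± 0.12), Hoxb7 (2.98 ± 0.04), Hoxb9 (2.17 ± 0.10) and Hoxb6 (2.12 ± 0.10). Hoxb13, known from the distal colon, read -7.84 ± 0.05.

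**Figure D3:**
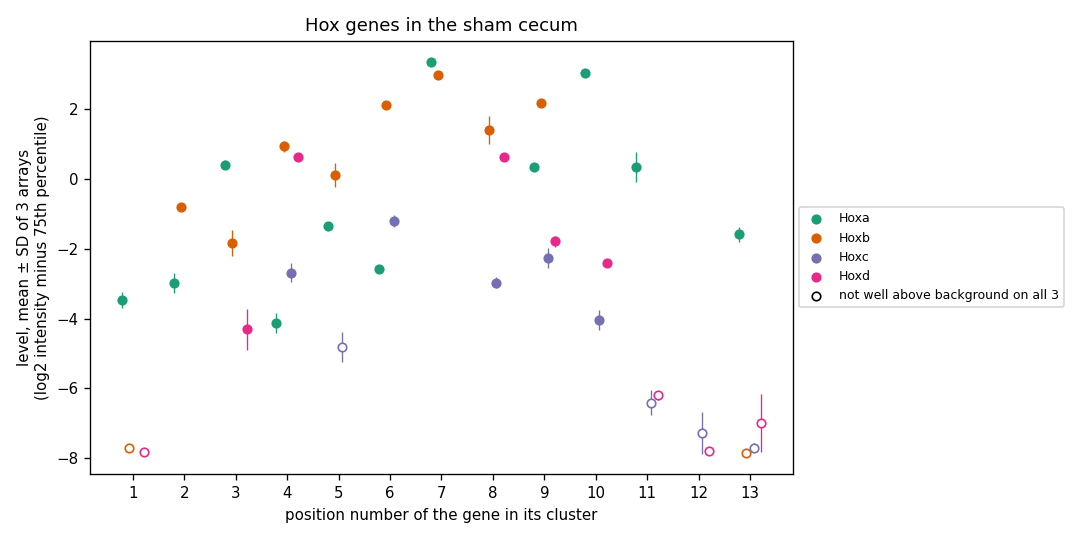
Level of each Hox gene in the sham cecum against its position number in its cluster, mean ± SD of 3 arrays on a log2 scale, coloured by cluster and open where not well above background on all 3. The highest points are Hoxa7, Hoxa10 and Hoxb7, between 2.98 and 3.36, and 7 of the 9 genes of positions 11 to 13 lie below -6.

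Below the epithelium, smooth muscle was the list with the highest median. Myl9, the regulatory light chain of myosin (7.17 ± 0.16), Tagln, the actin-binding protein SM22 (7.11, 7.08 and 7.11), the actin Acta2 (6.73, 6.73 and 6.56), calponin, Cnn1 (6.53 ± 0.08), and filamin, Flna (5.76 ± 0.08), led the list. Actg2, the actin most typical of visceral muscle, stood at 4.77 ± 0.13, the heavy chain Myh11 at 3.74 ± 0.21 and desmin, Des, at 2.60 ± 0.21. The order within the list leaned on the probe, since the other probes of Acta2 stood at 4.65, 2.03 and -5.77. When the probes of each gene were averaged, the median percentile of the list was 86.7, and with single-probe genes alone 85.8, both below percentile 90.

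Genes of pacemaker cells and nerves of the muscle layer were detected at lower levels. The chloride channel Ano1 (2.06 ± 0.13) and the receptor Kit (0.68 ± 0.22) mark the interstitial cells of Cajal. All 20 neuronal genes were detected, against 66.2% of all genes, with a median percentile of 58.3. Uchl1, a deubiquitinase of neurons, stood at 1.85 ± 0.12, Stmn2 at 1.40 ± 0.14, Scg2 at 0.52 ± 0.09 and the peptides galanin, Gal, and Vip at 0.20 ± 0.08 and -0.06 ± 0.04. Chat and Nos1, the enzymes of the main excitatory and inhibitory neurons, were low, with Chat, whose probe holds a shared word, at -3.72, -4.05 and -4.24 and Nos1 at -4.35 ± 0.13. Snap25 read 3.80 with a shared-word probe and -4.98 without it. With such probes left out, 18 of the 20 neuronal genes were detected, since Snap25 then passed the background mark on 1 array and Elavl4 on 2. Of 10 glial genes 9 were detected, with Ngfr at -0.60 ± 0.03 and Sox10 at -2.48 ± 0.25, and Erbb3, which epithelium also expresses, was the highest at 3.52 ± 0.39.

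Connective tissue was led by Dcn, a small proteoglycan of collagen fibrils (5.35 ± 0.13), the collagen chains Col1a2 (5.21 ± 0.06) and Col3a1 (4.43 ± 0.04), complement C3 (4.77 ± 0.10) and fibronectin, Fn1 (4.69 ± 0.15). All 18 members were detected, against 66.2% of all genes, at percentile 81.6. Gsn, the highest member by its shared-word probe at 5.41, had its other probe at -2.01. Below the epithelium, Bmp4 (2.58 ± 0.16), Foxf1 (2.47 ± 0.07) and the Wnt amplifier Rspo3 (-0.67 ± 0.20) were all detected. In vessels, Egfl7 (2.77 ± 0.09), Plvap (2.03 ± 0.02) and Vwf (1.48 ± 0.16) led the blood endothelial genes, and Ccl21a, a chemokine of lymphatic endothelium, read 3.47 ± 0.15.

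Mesothelial genes were low. Of 9 members 8 were detected, against 66.2% of all genes, at a median percentile of 46.0. Msln, mesothelin, was the highest and read 0.59, 0.01 and 0.60, Wt1, the regulator used to trace these cells, read -3.00, -2.85 and -3.21, and Upk3b, a surface protein of mesothelium, read -3.23 ± 0.18. Rspo1 stood at -1.37 and Nkain4 at -1.88, and Bnc1 was above background on none of the arrays. Pdpn, which lymphatic endothelium shares with mesothelium, stood at 1.07 ± 0.20.

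Among genes of resident immune cells, several genes of class II antigen presentation and of macrophages were bright. Of the class II genes, H2-Eb1 (5.93 ± 0.16), H2-Ab1 (5.48 ± 0.10) and Cd74 (4.69, 4.43 and 4.67) were bright, while H2-Aa, another chain, stood at -0.19 ± 0.16. Lyz2, lysozyme of myeloid cells, read 5.95 ± 0.19, the growth factor receptor Csf1r 3.73 on each of the 3 arrays, and the complement genes C1qc and C1qa 2.28 ± 0.11 and 1.54 ± 0.20. All 18 macrophage genes were detected, against 66.2% of all genes, at a median percentile of 73.8. Jchain, which joins IgA into dimers (5.28 ± 0.22), and Xbp1, a secretory regulator that goblet cells share (5.05 ± 0.14), led the plasma cell list. Of its 9 members 8 were detected, at a median percentile of 67.1. Derl3 stood at -0.10 and Irf4 at -1.61, and Fkbp11, at -5.67, was above background on 1 array. Igha and Ighm had no probe of that name.

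Lymphocyte genes were detected throughout, with 14 of 14 B cell and 23 of 23 T and NK cell genes, against 66.2% of all genes. Their median percentiles were 71.7 and 60.3, and the lowest T and NK cell gene, Gzmb, stood at -4.55. Cd79b, a chain of the B cell receptor, stood at 2.85 ± 0.45, Ms4a1, which encodes CD20, at 1.80 ± 0.52, Cd3e at 0.94 ± 0.27 and Cd4 at 0.69 ± 0.10. Foxp3, the factor of regulatory T cells, was low at -4.32 ± 0.15. Follicle genes were present as well, with Ltb at 2.77 ± 0.44 and Cxcl13 at 1.39 ± 0.20.

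Granulocyte lists were at the low end. Of 16 neutrophil genes 12 were detected, against 66.2% of all genes, at percentile 40.6. Ltf, Ngp and the receptor Cxcr2 were above background on none of the arrays, and S100a8 was above it on 2. The highest value, Csf3r at 5.85, came from a single probe with a shared word. Eosinophil genes had a percentile of 36.0, with Siglecf at -2.19 and Epx at background, and mast cell genes one of 44.4, led by the protease Mcpt4 at -0.71. Of 6 red cell genes 2 were detected, with alpha globin, Hba-a1, at 2.36, 3.47 and 2.81.

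Among transcripts that the study followed after injury, the cytokines and chemokines had low or absent signal. Il6 read -4.85, -5.53 and -5.16, and Tnf -2.64, -2.54 and -2.43. Ifng and Cxcl2, with Cxcr2, were above background on none of the arrays, and the chemokines Cxcl1 and Cxcl5 stood at -3.73 ± 0.71 and -4.56 ± 0.57. The receiving side of IL-6 signaling was detected, with the receptor Il6ra at 1.30 ± 0.15, its signaling partner Il6st at 0.93 ± 0.03 and the transcription factor Stat3 at 2.96 ± 0.13. Tgfb1 stood at -1.67 ± 0.28 and Col1a1, the collagen chain of scar, at 3.41 ± 0.05.

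The 3 mice were alike but not equal. The correlation across detected genes, which are not independent replicates, was 0.995 between sham mice 1 and 2, 0.994 between 2 and 3, and 0.990 between 1 and 3. A range above 1 unit, or 2-fold, between the highest and lowest mouse was seen for 623 genes (3.46%), above 2 units for 33 and above 3 units for 3. Sham mice 1 and 3 differed by that much in 491 genes, 2 and 3 in 199, and 1 and 2 in 90. The range of a gene over 2 arrays cannot exceed its range over 3, so lower numbers with a mouse left out say little by themselves. They were 96 without sham mouse 3, 208 without sham mouse 1 and 495 without sham mouse 2. Such ranges were less frequent among bright genes, with 1.90% of 4424 genes above a level of 2 against 5.29% of 5314 genes below -2.

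The widest range belonged to Reg3b, a lectin that the epithelium secretes against bacteria, at -0.83, 4.42 and 3.45, and its neighbour Reg3g read -1.06, 2.75 and 2.27. Both were low in sham mouse 1 and high in the other two. Cyp24a1, the enzyme that breaks down active vitamin D, read -2.54, -0.65 and -4.84, with sham mouse 3 lowest. Ly6g, an antigen of neutrophils, read -0.76, 0.59 and 1.98, and S100a9, a calcium-binding protein of neutrophils, had the same order at -3.52, -2.37 and -1.42. Retnlg, another neutrophil gene, read 0.12, 0.79 and 0.38, and Elane ran the other way at -1.44, -1.49 and -1.68. Of the 12 neutrophil genes detected, 6 were highest in sham mouse 3, 5 in sham mouse 1 and 1 in sham mouse 2. The order of Ly6g was also that of 3 genes of its family. These were Ly6a (1.22, 2.38 and 3.45), Ly6c1 (3.56, 4.26 and 5.22) and Ly6c2 (3.53, 4.25 and 5.22). The chemokine Cxcl9 stood at -4.35, -1.92 and -1.72, the metalloproteinase Mmp3 at -2.10, -1.60 and 0.56, and the cytochrome Cyp4b1 at 2.06, 1.05 and -0.60. Cyp4f15, Agbl2 and Slurp1 complete the 10 widest.

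**Figure D4:**
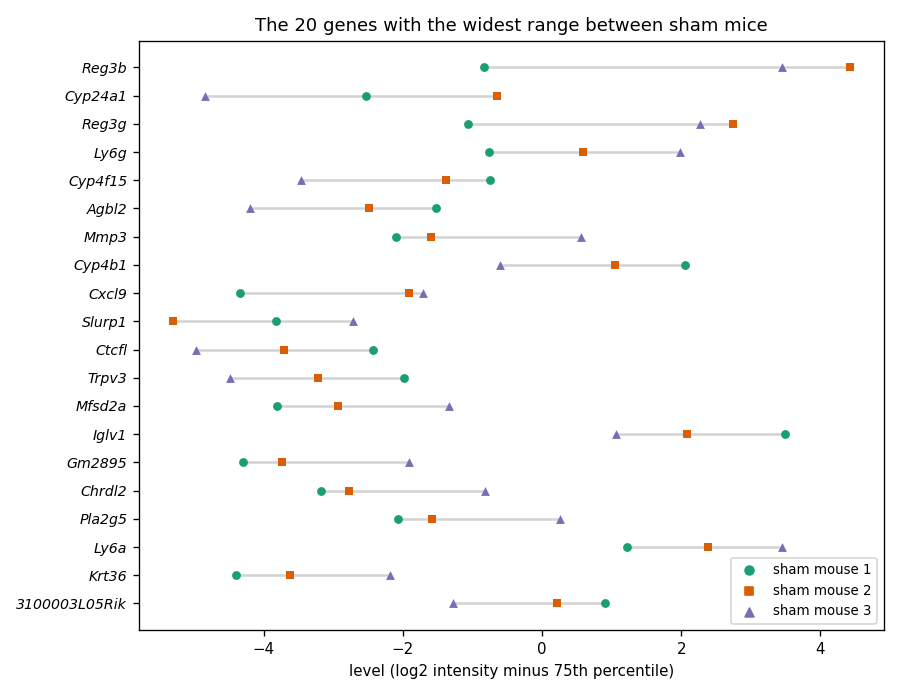
Levels of the 20 detected genes with the widest range between the 3 sham mice, on a log2 scale, with a point for each mouse. Reg3b spans 5.26 units and Reg3g 3.81, with sham mouse 1 apart from the other mice in both.

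Lists moved between the mice as wholes. All 12 proliferation genes were lowest in sham mouse 1 and highest in sham mouse 3, an order that 22.7% of all detected genes had, with differences between these mice of 0.80 to 1.72 units. Mki67, the antigen of cycling cells, read 3.31, 3.85 and 4.23, and Mcm5, a subunit of the helicase that opens DNA for replication, read 0.70, 1.60 and 2.23. Sham mouse 3 was also the higher in all 11 heat shock genes against sham mouse 1, a direction that 44.0% of all detected genes had, by a median of 0.53, as for the chaperonin Hspd1 at 4.94, 5.42 and 5.85. Against sham mouse 2 it was higher in all 11 interferon response genes, against 46.7% of all detected genes, by a median of 0.86, as for Isg15 at 3.98, 4.12 and 5.61.

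Absorptive colonocyte genes ran the other way, with 15 of 19 higher in sham mouse 1 than in sham mouse 3, against 56.0% of all detected genes, by a median of 0.43, as for Sult1a1, a sulfotransferase, at 6.47, 6.17 and 5.19, and Mep1a, a brush border protease, at 5.86, 5.43 and 4.66. Goblet cell genes showed no such tilt as a list, with median deviations from the mean of the 3 mice between -0.02 and 0.04. Single members moved both ways, with 6 of 14 highest in sham mouse 1 and 7 in sham mouse 3. Agr2 read 5.04, 5.30 and 6.28, and Fcgbp 7.03, 6.97 and 6.61. Of 11 clock genes 9 were lowest in sham mouse 3, against 42.4% of all detected genes, with a median deviation of -0.39, as for Per3 at -0.55, -0.69 and -1.91. The other two, Arntl (-0.26, -0.40 and -0.04) and Npas2, were highest in that mouse.

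Sham mouse 2 was the lowest in all 14 B cell genes, as for Ms4a1 at 2.09, 1.20 and 2.11, and in 9 of 10 follicle genes, such as Ltb, a cytokine that organises lymphoid tissue, at 2.84, 2.29 and 3.16. That mouse was also the lowest in 19 of 23 T and NK cell genes. For dendritic cell and class II genes it was 8 of 11, and for mast cell genes 6 of 9. The counts were 5 of 8 for plasma cells, 6 of 18 for macrophages, 3 of 12 for neutrophils and 3 of 6 for eosinophils. The median difference of B cell genes from sham mouse 1 was 0.75, and with sham mouse 2 left out the 2 others deviated by 0.01. The same mouse was higher than sham mouse 3 in 15 of 16 fat cell genes, against 53.3% of all detected genes, by a median of 0.89, as for Adipoq, the hormone adiponectin, at -0.51, 0.30 and -1.25. For comparison, sham mouse 2 was the lowest mouse in 24.0% and the highest in 26.8% of all detected genes. With 3 mice and 1 array each, the spread between mice and that between dissections and arrays cannot be told apart.

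**Figure D5:**
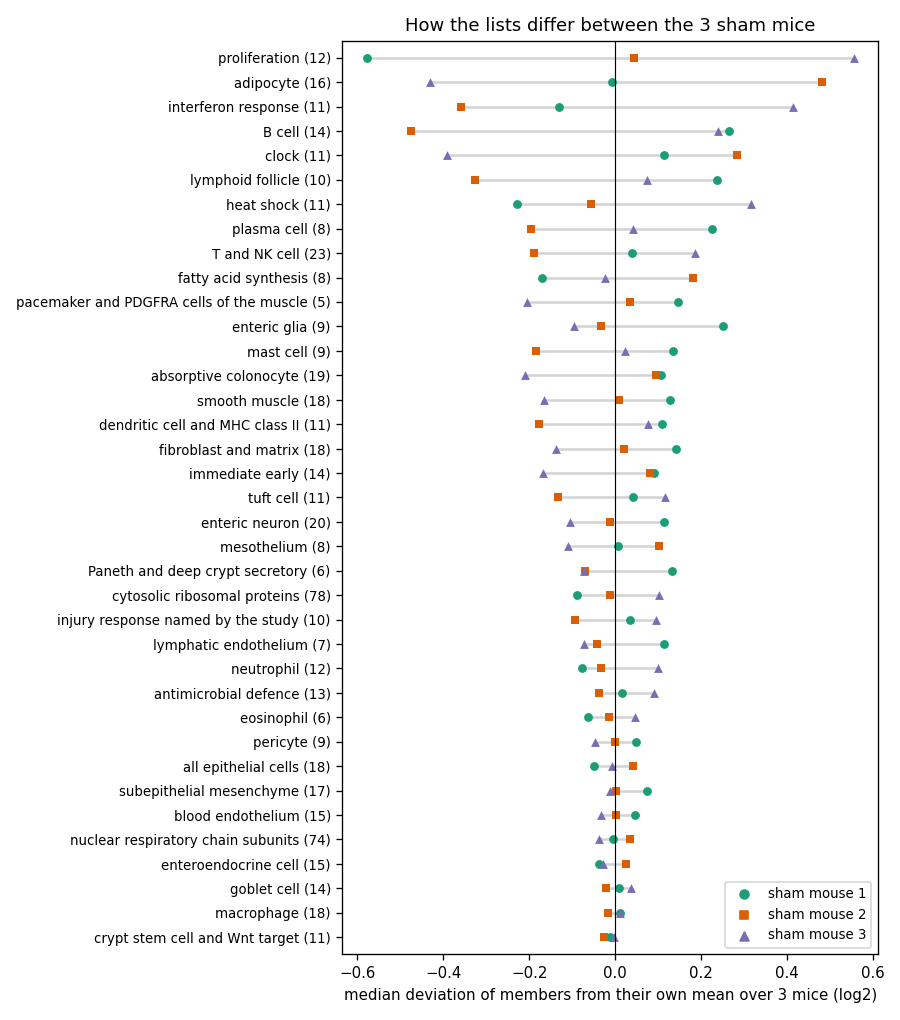
Median deviation of the members of each list from their mean over the 3 sham arrays, in log2 units, with a point for each mouse. Proliferation spreads from -0.58 in sham mouse 1 to 0.55 in sham mouse 3, B cell genes lie lowest in sham mouse 2 at -0.47, and goblet cell genes lie near 0 in all.

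The labels were checked against genes of the sex chromosomes. The mice are labelled male, but Xist, the RNA that coats the silenced X in female cells, was above background in all 3 at -0.50, -0.87 and -0.57. The Y-linked genes Ddx3y and Eif2s3y were above background on none of the arrays, Uty on 1, while Kdm5d had 1 probe of 6 that passed the background mark on all 3 arrays and 5 that passed it on none. All 3 libraries therefore went against the labelled sex, and no result above was split by sex.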

How the data were processed

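RNA of 3 sham cecum samples was measured on 1-colour arrays, grouped by the sample labels. The authors deposited each array's scanner output from Feature Extraction 11.5.1.1, with a linear intensity per spot after background correction, and a table of log2 values scaled in GeneSpring to the 75th percentile and centred on each row's median. Per the file headers, probe positions are those of mm9.

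Here control spots were left out, and each array's 75th percentile over all other spots was subtracted from log2 intensity. After that, 53 to 85 outlier spots per array were dropped and the spots of a probe were averaged. Of 56605 probes, 46312 could be named through the files and RefSeq names, and a gene was its brightest probe. No test between groups was made, and p-values were not computed. Python 3.11.15, pandas 2.3.3, R 4.3.3 and limma 3.58.1 (normexp alternative) were used. The code that ranks genes and lists was checked on simulated data.

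The lists were written by hand, and members and lists were chosen with earlier results of these data known. Named were the 25 highest genes, up to 5 highest members per list, members at background, the 10 widest ranges and up to 4 members of lists that differed between mice. Some genes that this rule names are not reported here. Other defining markers, and probes with shared words, were named after their values were seen. The number of arrays limits the precision. Whether the mice shared a litter or cage is not given in the sources used here, so that the spread may be partly technical.

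Alternatives were other background marks, normalizations, probe rules, the authors' table and leaving out each array. Fold changes in the series were not used here.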

Additional observations from a re-analysis of the deposited data

How the results depend on the processing

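No paired analysis was possible because only the sham group was used. Of 39 values under alternative settings, 34 stayed within 1.5 times the reported one. The number of detected genes ranged from 17766 with shared-word probes left out, an alternative chosen after seeing the data, to 20728 with the weaker background mark, and from 18139 to 18344 with each mouse left out. Of the 100 highest genes, 52 remained when a gene's probes were averaged, 74 without the shared-word probes, 93 with normexp background correction, 99 with quantile normalization and 96 to 97 with each mouse left out. The number of lists above percentile 90 was 7 except with single-probe genes, where it was 8. With averaged probes, fatty acid synthesis took the place of smooth muscle among the 7. With single-probe genes, smooth muscle was not among the 8, and fatty acid synthesis (percentile 95.7) and proliferation (93.5) were. The number of genes with a range above 1 unit was 202 with normexp correction, 3106 with no background filter and 628 in the authors' table, which shared 601 of the 623 genes. Left-out mice gave 96 (sham mouse 3), 208 (sham mouse 1) and 495 (sham mouse 2), where a range over 2 arrays cannot exceed that over 3. Beyond that, and the added dim genes when no filter was used, the cause of these moves was not tested. Signal near background limits the genes below about -4.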

Other observations

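Lipid synthesis was a bright state list that belongs to no single layer. All 8 of its genes were detected, against 66.2% of all genes, at a median percentile of 89.1. Fasn, fatty acid synthase, read 5.19, 5.69 and 5.41, the desaturase Scd2 read 4.18, 4.87 and 5.05, and Acly, which supplies cytosolic acetyl-CoA, read 4.21, 4.54 and 4.42. Immediate early genes, which many cells switch on within minutes of handling, were led by Klf4 at 6.61 ± 0.16, a factor that surface colonocytes also express. Jun stood at 3.76 ± 0.47, Fos at 2.96 ± 0.37 and Egr1 at 0.23 ± 0.09. Junb read 4.27 with a shared-word probe and -2.49 with the next.

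Probes without a gene name were part of the bright signal. Of 10293 such probes 49.0% were detected, and 18 of the 100 brightest probes had no name, of which 4 held a shared word. Among the 26 highest genes with a shared word, sham mouse 2 was the lowest of the 3 for 19, sham mouse 3 for 6 and sham mouse 1 for 1. Of the probes with a shared word 84.3% were detected, against 60.8% of the others.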
